A study of Mus musculus with 14 samples.

Results

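The aryl hydrocarbon receptor (AHR) pathway was followed through 7 genes: Ahr, its partner Arnt, its repressor Ahrr, and its targets Tiparp, Cyp1a1, Cyp1a2 and Cyp1b1. They were taken by gene symbol, which gave 13 of the 22626 probesets tested. A probeset is a set of short probes whose signals are summarized to 1 value for a transcript. Tiparp and Cyp1b1 have 3 probesets each, Ahr and Arnt 2 each, and the others 1 each. RNA of B16F10 mouse melanoma cells, a line derived from C57BL/6J mice and grown in RPMI with serum, was measured on Affymetrix mouse expression arrays. The 14 arrays were of 5 untreated control cultures and of 3 cultures for each of Lipofectamine, heat shock and benzyl alcohol. Lipofectamine 2000, a cationic liposome used to carry DNA into cells, was given without plasmid. These cells spent 3 h with it in Opti-MEM and then had 30 min to recover in RPMI with serum. Heat-shocked cells spent 1 h at 42.5 °C, then 30 min back at 37 °C. Benzyl alcohol, which makes membranes more fluid, was given at 40 mM for 1 h. Its recovery is 3 h in the treatment protocol and 30 min in the design text. The methods describe no change of medium for untreated cells, so liposomes and medium cannot be told apart. Agent and timing cannot be told apart between treatments either.

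AHR is a transcription factor of the bHLH-PAS family that waits in the cytosol with HSP90 and its helper proteins. When a ligand such as a dioxin, a polycyclic hydrocarbon or a tryptophan product binds, it moves to the nucleus, pairs with ARNT and switches on genes that carry its binding site. Cyp1a1, Cyp1a2 and Cyp1b1 encode cytochrome P450 enzymes that oxidize such ligands and are the classic readout of the receptor. Ahrr and Tiparp act back on it: AHRR competes for ARNT, and TIPARP (also PARP7) attaches ADP-ribose to AHR and lowers its activity. Tiparp also answers to signals other than AHR.

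The letters GCGTG are the core of the site that AHR and ARNT bind. They are shown here in the stretches before the start of Tiparp, the only target among the 7 genes that passed, and of Ahrr, Cyp1a1 and Cyp1b1, targets that did not pass. Each is the 250 bases before a RefSeq start in GRCm38.p6, written 5′ to 3′ along the gene. Capitals mark GCGTG or, on the other strand, CACGC.

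Tiparp, chr3:65528197-65528446, plus strand: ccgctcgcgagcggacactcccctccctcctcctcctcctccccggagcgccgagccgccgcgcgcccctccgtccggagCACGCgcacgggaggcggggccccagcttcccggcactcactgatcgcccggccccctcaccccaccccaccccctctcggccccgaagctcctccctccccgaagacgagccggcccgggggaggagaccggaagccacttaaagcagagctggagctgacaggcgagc

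Ahrr, chr13:74292332-74292581, minus strand: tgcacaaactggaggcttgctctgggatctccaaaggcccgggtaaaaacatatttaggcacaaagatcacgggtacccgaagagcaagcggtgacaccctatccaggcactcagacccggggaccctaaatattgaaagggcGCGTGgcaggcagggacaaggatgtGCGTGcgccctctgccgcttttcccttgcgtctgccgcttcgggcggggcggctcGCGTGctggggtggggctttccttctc

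Cyp1a1, chr9:57697363-57697612, plus strand: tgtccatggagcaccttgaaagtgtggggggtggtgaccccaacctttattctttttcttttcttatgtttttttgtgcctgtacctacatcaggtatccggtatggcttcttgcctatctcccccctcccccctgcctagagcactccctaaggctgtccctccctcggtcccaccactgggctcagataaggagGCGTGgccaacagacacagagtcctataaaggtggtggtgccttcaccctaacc

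Cyp1b1, chr17:79715062-79715311, minus strand: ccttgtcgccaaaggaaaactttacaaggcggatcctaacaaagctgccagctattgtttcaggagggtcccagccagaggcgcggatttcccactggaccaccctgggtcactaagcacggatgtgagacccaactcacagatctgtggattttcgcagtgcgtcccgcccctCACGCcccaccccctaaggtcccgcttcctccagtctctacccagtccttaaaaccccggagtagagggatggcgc

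RefSeq promoters matched 6 of the 7 genes, and 5 of them hold GCGTG on either strand in this window, among 28.1% of all 32817 promoters. Ahrr has 3 matches. Tiparp, Cyp1a1, Cyp1b1 and Arnt have 1 each and Cyp1a2 has 0. The match in Tiparp begins 170 bases before the start and that in Cyp1a1 54 bases before it. A match of 5 letters is a description of the sequence, not a site.

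The deposited values are log2 signals by RMA, with array medians between 7.03 and 7.12. All 6 melanocyte genes measured had group means of at least 9.51. List means of epithelial, fibroblast and macrophage markers stayed between 5.50 and 6.68 in every array, and those of 3 hepatocyte markers between 6.94 and 7.44. Single markers had higher group means, up to 7.33 for Krt8 and 8.28 for Csf1r with heat shock. In control Col1a2 had 7.49 and Ttr 7.90. Against control, Sox10 (−0.98, adjusted p = 0.0135 by limma) and Tyr (−0.39, 0.0415) fell with heat shock among the melanocyte genes. Mitf changed by more but did not pass, with −1.46 after heat shock (0.0528) and −1.41 after Lipofectamine (0.0671). Among 18 markers of the other cell types 1 passed, the macrophage gene Cd68, which rose with benzyl alcohol (0.90, 0.00374). The part of these changes in the results was not tested. Control arrays 1 and 3 lie apart from control arrays 2, 4 and 5 at 38.7% of all probesets and at 4 of the 13 here. Values for each set of control arrays are therefore given for some of the changes below, not for all. At Sox10, control arrays 1 and 3 read 0.76 below the other control arrays, and its fall is given only for all 5 together. In bulk RNA, fewer cells with a transcript and less of it per cell cannot be told apart.

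Tiparp moved in opposite directions under the treatments, with the lowest levels after heat shock and the highest after Lipofectamine and benzyl alcohol. At the probeset 1452160_at the log2 signals of control arrays 1 to 5 were 6.91, 7.26, 7.15, 7.32 and 7.33. The Lipofectamine arrays had 8.10, 7.95 and 7.72, and the heat shock arrays 6.33, 6.65 and 6.44. The benzyl alcohol arrays had 8.21, 7.50 and 8.53. Every heat shock array was below the whole control range, and every Lipofectamine and benzyl alcohol array was above it.

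At 1452161_at the control signals were 8.26, 8.05, 7.78, 8.18 and 8.37. Lipofectamine gave 8.70, 8.67 and 8.71, an unusually tight set, and benzyl alcohol 9.31, 8.46 and 9.13. Heat shock gave 7.76, 7.89 and 7.61, of which 1 array lay inside the control range. The order of the groups was the same as at 1452160_at.

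The remaining probeset, 1426721_s_at, had control signals of 9.37, 9.20, 9.59, 9.41 and 9.50. Heat shock gave 8.58, 8.78 and 8.78, below every control array. Lipofectamine gave 9.61, 9.93 and 9.47 and benzyl alcohol 9.93, 9.29 and 9.96. Both sets overlapped the control arrays here, which they did not at the other Tiparp probesets. Benzyl alcohol array 2 was the lowest of its group at all 3 Tiparp probesets.

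**Figure D1:**
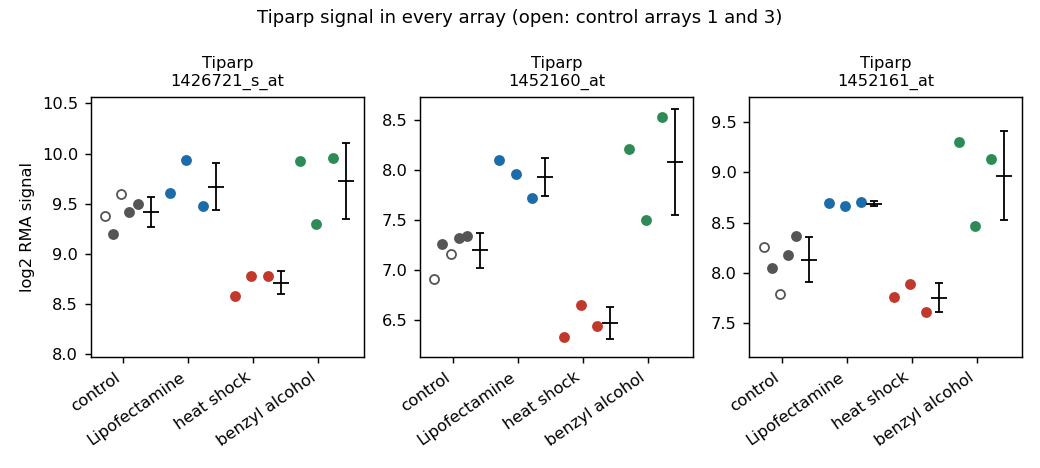
Log2 RMA signal of the 3 Tiparp probesets in every array by group, with open symbols for control arrays 1 and 3 and a dash and bar at the right of each group for its mean ± SD (n = 5 control, 3 for each treatment). The heat shock group has the lowest mean at each probeset, with 1 of its arrays inside the control range at 1452161_at, and at 1452160_at it averages 6.47 ± 0.16 against 7.20 ± 0.18 in control.

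With Lipofectamine, Tiparp rose at 2 of its 3 probesets. The log2 change was 0.73 at 1452160_at (SE 0.124, adjusted p = 0.0056 by limma, 1.66-fold) and 0.56 at 1452161_at (SE 0.123, adjusted p = 0.0206, 1.48-fold). At 1426721_s_at it was 0.26 and did not pass (SE 0.12, adjusted p = 0.276). These were the only calls among the 13 probesets, 15.4% of them against 4.88% of all probesets tested, and both belong to 1 gene. The same 2 were the ones whose arrays did not overlap the control arrays, against 10.4% of all probesets. The median log2 change was 0.11 over the 13 and −0.02 over all. Leaving out Lipofectamine array 1 ended the call at 1452160_at (adjusted p = 0.0524). The call at 1452161_at ended without any 1 of Lipofectamine arrays 1, 2 and 3 (0.0982, 0.0535 and 0.0738) or with all 14 arrays in the fit (0.0585). The changes themselves stayed between 0.62 and 0.89 and between 0.48 and 0.67.

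With heat shock, the log2 signal of Tiparp fell by 0.72 at 1452160_at (adjusted p = 0.00615 by limma, SE 0.124, 1.65-fold) and by 0.70 at 1426721_s_at (SE 0.12, adjusted p = 0.00621, 1.63-fold). At 1452161_at the change was −0.38 and did not pass (SE 0.123, adjusted p = 0.0876). Again 2 of the 13 probesets passed, 15.4% against 5.96% of all, and both were of Tiparp. They were also the 2 without overlap between groups, against 17.8% of all probesets. The median log2 change was 0.01 over the 13 and 0.03 over all. Both calls held whichever array was left out. Control arrays 1 and 3 read 0.28 below the other control arrays at 1452160_at, and with only those arrays as control the fall was 0.56 (adjusted p = 0.0435). At 1452161_at the fall passed without control array 3 (−0.46, adjusted p = 0.0119).

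With benzyl alcohol, Tiparp rose at the same probesets as with Lipofectamine. The log2 change was 0.88 at 1452160_at (SE 0.18, adjusted p = 0.0217 by limma, 1.84-fold), 0.84 at 1452161_at (SE 0.164, adjusted p = 0.0163, 1.79-fold) and 0.31 at 1426721_s_at, which did not pass (SE 0.15, adjusted p = 0.388). Here 2 of the 13 probesets passed, 15.4% against 1.39% of all, and 3 did not overlap control (these and 1422631_at of Ahr), against 7.55% of all. The median log2 change was 0.02 over the 13 and over all. Without benzyl alcohol array 1 the adjusted p of 1452160_at and 1452161_at was 0.0944 and 0.0904, and without array 3 it was 0.148 and 0.113, so that neither passed. The 3 comparisons with untreated cells share the same control arrays.

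**Figure D2:**
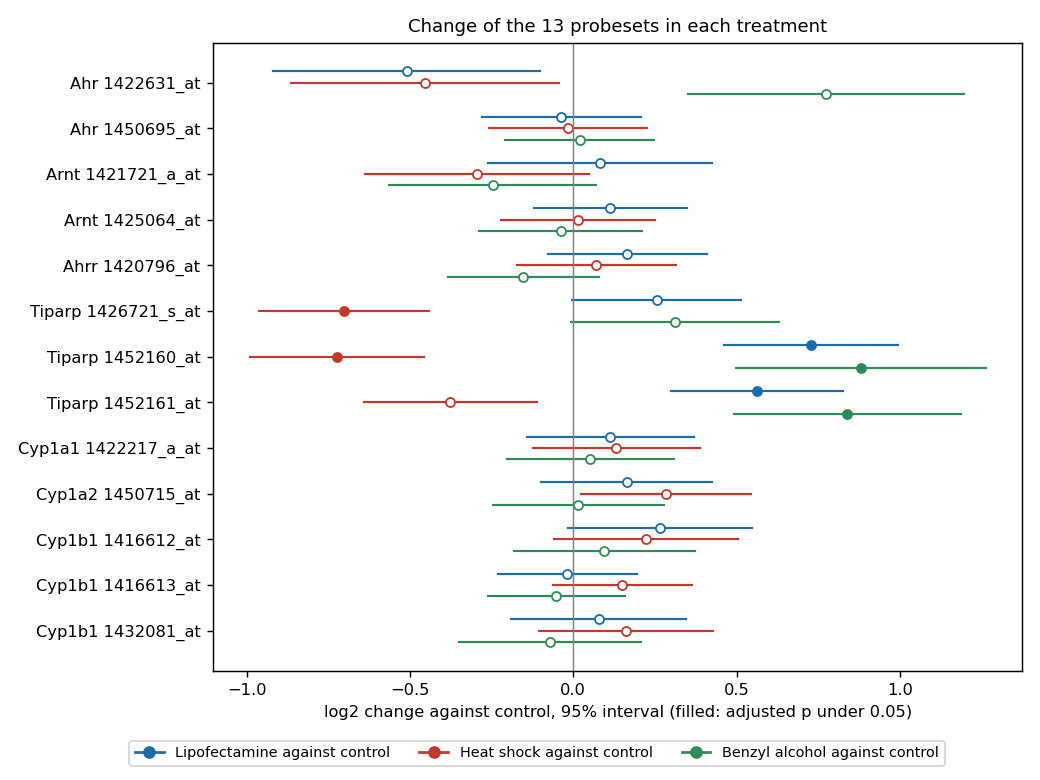
Log2 change of each of the 13 probesets against the control arrays with its 95% interval from limma, for Lipofectamine, heat shock and benzyl alcohol. Filled points passed at an adjusted p under 0.05, and all of them are of Tiparp, to the left of 0 with heat shock (−0.72 at 1452160_at) and to the right with the other treatments (0.73 and 0.88 there).

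The treatments were also compared with each other directly, without the control arrays in the difference. Tiparp was higher after Lipofectamine than after heat shock at all 3 probesets, by 1.45 at 1452160_at (SE 0.138, adjusted p = 7.05e-05 by limma, 2.74-fold), 0.96 at 1426721_s_at (adjusted p = 0.00174) and 0.94 at 1452161_at (adjusted p = 0.00226). They were the 3 of 13 probesets that passed, 23.1% against 5.72% of all. Groups did not overlap at 5 of the 13, against 30.4% of all. Each of these calls held in all 24 alternatives. In comparisons between treatments, alternatives that only leave out arrays of a group not compared leave the difference unchanged. They can move only its SE and adjusted p.

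After benzyl alcohol Tiparp was higher than after heat shock by 1.60 at 1452160_at (SE 0.201, adjusted p = 5.54e-04 by limma, 3.04-fold), 1.22 at 1452161_at (adjusted p = 0.00216) and 1.01 at 1426721_s_at (adjusted p = 0.00391). With a probeset of Ahr they made 4 of 13, 30.8% against 7.22% of all (5 without overlap, against 31.6% of all), and each call held in all 26 alternatives. Benzyl alcohol and Lipofectamine, the neighbours at the top of the order, gave no call at any Tiparp probeset. The largest difference was 0.28 at 1452161_at (95% interval −0.11 to 0.67, adjusted p = 0.392 by limma), and without benzyl alcohol array 2 it was 0.53 and passed (adjusted p = 0.0393). At 1452160_at it was 0.15 (interval −0.28 to 0.58) and at 1426721_s_at 0.06 (−0.30 to 0.41).

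The 3 Tiparp probesets carry the same source sequence in the platform annotation, and their signals over the 14 arrays were correlated at Pearson r of 0.909, 0.817 and 0.923, given as a description over arrays that share group and normalization. They still differ in the sizes they report. The rise with Lipofectamine was 0.73 and 0.56 at 1452160_at and 1452161_at and 0.26 at 1426721_s_at, whose name ending marks probes that can match more than 1 transcript. The fall with heat shock was −0.72 and −0.70 at 1452160_at and 1426721_s_at and −0.38 at 1452161_at.

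Whether the probesets differ was tested on their difference within each array. The signal of 1426721_s_at minus that of 1452160_at averaged 2.22 ± 0.23 (SD) in 5 control arrays, 1.75 ± 0.24 in 3 Lipofectamine arrays, 2.24 ± 0.10 in 3 heat shock arrays and 1.65 ± 0.19 in 3 benzyl alcohol arrays. The gap was 0.57 smaller with benzyl alcohol than in control, with an exact permutation p = 0.0357 (two-sided), the smallest that 3 against 5 arrays allow. It was 0.47 smaller with Lipofectamine (exact permutation p = 0.0714). The gap between 1426721_s_at and 1452161_at was also 0.53 smaller with benzyl alcohol (exact permutation p = 0.0357). Over the 12 comparisons made, 3 pairs of probesets in 4 comparisons of groups, the lowest adjusted p was 0.214. None of the 12 passed after adjustment, and with 3 arrays in a treated group this does not show that the probesets act alike.

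Ahr itself, the receptor, gave unlike readings at its 2 probesets, which also carry the same source sequence. At 1422631_at the control signals were 5.93, 6.61, 6.40, 6.87 and 6.73. Benzyl alcohol gave 7.51, 6.88 and 7.46, above every control array although array 2 was so by little. Lipofectamine gave 6.04, 6.17 and 5.78 and heat shock 5.73, 6.16 and 6.27, in the lower part of the control range or below it. At 1450695_at all 14 arrays lay between 6.95 and 7.30, with group means of 7.14 to 7.20. The correlation between the probesets over the 14 arrays was 0.0941.

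At 1422631_at Ahr was higher after benzyl alcohol than after Lipofectamine by a log2 difference of 1.28 (adjusted p = 0.00252 by limma, SE 0.223, 2.44-fold), the 1 probeset of 13 that passed in this comparison, 7.69% against 11.9% of all. Groups did not overlap at 3 of the 13, against 28.5% of all. It was higher than after heat shock by 1.23 (SE 0.223, adjusted p = 0.00679, 2.34-fold). Both calls held in all 26 alternatives, but those that leave out control arrays cannot change these differences. At 1450695_at the same differences were 0.06 (95% interval −0.20 to 0.31) and 0.04 (−0.22 to 0.29). At 1422631_at control arrays 1 and 3 averaged 6.16, near Lipofectamine (6.00) and heat shock (6.05). Control arrays 2, 4 and 5 averaged 6.74 there, and benzyl alcohol 7.28. Whether the treated cultures differ as these sets of control arrays do was not tested.

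Against control none of the Ahr changes passed. At 1422631_at they were 0.77 with benzyl alcohol (SE 0.199, adjusted p = 0.0701 by limma), −0.51 with Lipofectamine (SE 0.19, adjusted p = 0.152) and −0.45 with heat shock (SE 0.19, adjusted p = 0.174). Control arrays 1 and 3 read 0.57 below the other control arrays at this probeset, and the results moved with the control arrays used. With control arrays 1 and 3 left out, Lipofectamine gave −0.74 (adjusted p = 9.68e-04) and heat shock −0.68 (0.00169), which passed. With control arrays 2, 4 and 5 left out they were −0.17 and −0.11, while benzyl alcohol gave 1.12 (0.00199). Lipofectamine and heat shock also passed without control array 1 alone (0.0153 and 0.0277), and benzyl alcohol without benzyl alcohol array 2 (0.97, 0.0364). Within arrays, the difference between the Ahr probesets was −0.67 ± 0.39 (SD) in 5 control arrays and 0.08 ± 0.29 in 3 benzyl alcohol arrays (exact permutation p = 0.0357, two-sided; 0.107 adjusted over 3 comparisons chosen after their values were seen).

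**Figure D3:**
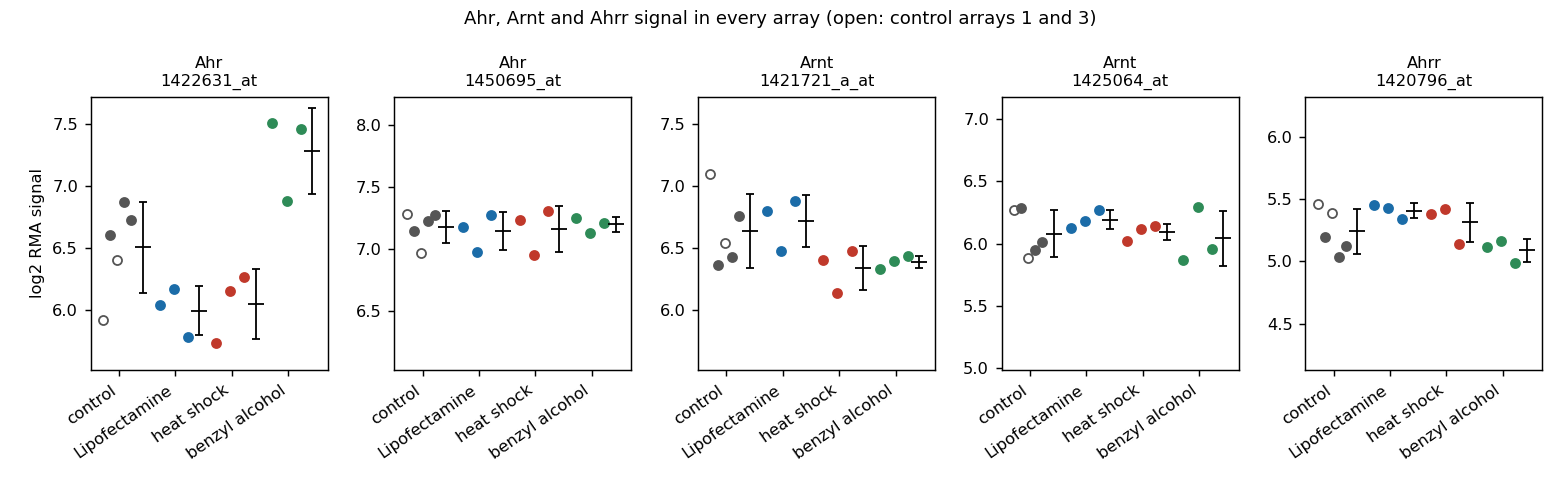
Log2 RMA signal of the Ahr, Arnt and Ahrr probesets in every array by group, with open symbols for control arrays 1 and 3, a dash and bar for each mean ± SD, and a span of 2.2 log2 units on each vertical axis. Only 1422631_at of Ahr spreads widely, from 5.73 in a heat shock array to 7.51 in a benzyl alcohol array.

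Arnt, the common partner of AHR and of the hypoxia factors, passed in none of the 6 comparisons at either probeset. At 1421721_a_at the group means were 6.64 ± 0.30 (SD) in control, 6.72 ± 0.21 with Lipofectamine, 6.34 ± 0.18 with heat shock and 6.39 ± 0.05 with benzyl alcohol. Lipofectamine and heat shock arrays did not overlap there, with a difference of 0.38 (95% interval −0.01 to 0.76, adjusted p = 0.254 by limma). The separation was very small, with 6.480 as the lowest Lipofectamine array and 6.478 as the highest heat shock array. Benzyl alcohol arrays also lay below all Lipofectamine arrays there, with a difference of −0.33 (adjusted p = 0.24 by limma). With array weights, an alternative fit, both differences passed. Lipofectamine minus heat shock was then 0.45 (adjusted p = 0.00188 by limma) and benzyl alcohol minus Lipofectamine −0.39 (0.024). At 1425064_at the means were 6.08, 6.19, 6.09 and 6.04 in the same order, and no group stood outside another.

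Ahrr, the repressor, had control signals of 5.46, 5.20, 5.39, 5.04 and 5.12, and control arrays 1 and 3 lay above the other 3. Lipofectamine gave 5.45, 5.43 and 5.34, heat shock 5.38, 5.42 and 5.14, and benzyl alcohol 5.12, 5.16 and 4.99. The changes against control were 0.16, 0.07 and −0.15, and none passed (adjusted p = 0.507, 0.735 and 0.62 by limma). Over the alternatives the Lipofectamine change ranged from −0.02 to 0.29 and the heat shock change from −0.11 to 0.19. The Lipofectamine change passed in 1 of them, with array weights (adjusted p = 0.0166 by limma). The benzyl alcohol arrays lay below all Lipofectamine arrays, by 0.32 (95% interval −0.58 to −0.06, adjusted p = 0.107). This difference passed with array weights (−0.39, adjusted p = 0.00648 by limma) and without control arrays 1 and 3 (0.0423).

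The P450 genes, the classic readout of AHR, did not pass in any comparison at any of their 5 probesets. Cyp1a1, the most strongly inducible of them, averaged 5.37 ± 0.15 (SD) in control, 5.49 ± 0.22 with Lipofectamine, 5.50 ± 0.13 with heat shock and 5.42 ± 0.17 with benzyl alcohol. Its changes were 0.11 (95% interval −0.14 to 0.37), 0.13 (−0.12 to 0.39) and 0.05 (−0.20 to 0.31). Rises of Cyp1a1 beyond 0.39 on the log2 scale lie outside these intervals. The probeset is 1 of 5 of the 13 that lie in the dimmer 33.3% of all probesets, where a signal near background understates change.

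Cyp1a2, best known from liver, averaged 5.72 ± 0.17 (SD) in control and 5.88 ± 0.17, 6.00 ± 0.18 and 5.73 ± 0.19 with Lipofectamine, heat shock and benzyl alcohol. Its largest change was 0.28 with heat shock (95% interval 0.02 to 0.54, adjusted p = 0.184 by limma), and the arrays overlapped. Control arrays 1 and 3 read 0.21 below the other control arrays here, and over the alternatives this change ranged from 0.15 to 0.41. Cyp1b1, the family member of many tissues outside the liver, changed by 0.26 with Lipofectamine at 1416612_at (interval −0.02 to 0.55, adjusted p = 0.304), where array 3 had 7.07 and the others 6.59 and 6.47. At 1432081_at and 1416613_at the Lipofectamine changes were 0.08 and −0.02. With heat shock the 3 Cyp1b1 probesets changed by 0.22, 0.15 and 0.16 (adjusted p = 0.326, 0.383 and 0.451 for 1416612_at, 1416613_at and 1432081_at), and with benzyl alcohol by 0.09, −0.05 and −0.07.

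**Figure D4:**
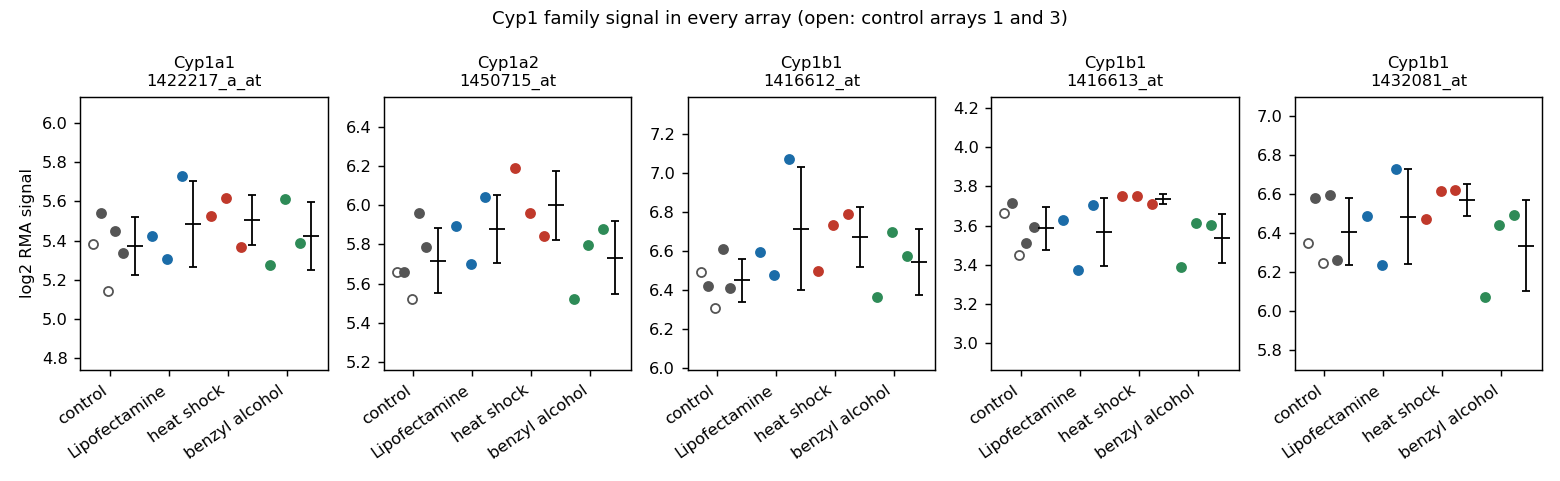
Log2 RMA signal of the Cyp1a1, Cyp1a2 and Cyp1b1 probesets in every array by group, with open symbols for control arrays 1 and 3, a dash and bar for each mean ± SD, and a span of 1.4 log2 units on each vertical axis. Each treatment's arrays overlap the control arrays in every panel, as for Cyp1a1 with means of 5.37 in control and 5.49, 5.50 and 5.42 with the treatments.

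Other genes that AHR is known to drive were read from the brightest probeset of each. Of 18 listed, 14 were measured. With Lipofectamine 2 rose and 0 fell, with heat shock 0 rose and 1 fell, and with benzyl alcohol 1 rose and 0 fell. Of all probesets 4.88%, 5.96% and 1.39% passed in these comparisons, so the 1 of 14 with heat shock is near the share of all. The median log2 changes were 0.07, 0.11 and 0.10, against −0.02, 0.03 and 0.02 over all probesets.

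Hes1, a repressor of the Notch pathway that AHR can also drive, rose from 7.10 ± 0.10 (SD) in control to 7.59 ± 0.19 with Lipofectamine (0.48, SE 0.109, adjusted p = 0.0239 by limma) and 7.75 ± 0.13 with benzyl alcohol (0.65, SE 0.108, adjusted p = 0.00643). With heat shock it was 7.42 ± 0.15 and did not pass (0.32, adjusted p = 0.103). The Lipofectamine call was lost without control array 4 or 5 or Lipofectamine array 2 or 3 (adjusted p = 0.0604, 0.0512, 0.0747 and 0.104) or with only control arrays 1 and 3 (0.0615), and the benzyl alcohol call without benzyl alcohol array 3 (0.052).

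Nqo1, a quinone reductase under both AHR and the antioxidant factor NRF2, was 7.02 ± 0.81 (SD) in control and 8.36 ± 0.40 with Lipofectamine, a rise of 1.34 (SE 0.351, adjusted p = 0.0447 by limma). Control arrays 1 and 3 read 1.39 above the other control arrays. With only control arrays 1 and 3 its change was 0.51, which missed the threshold (adjusted p = 0.175). With only control arrays 2, 4 and 5 the rise was 1.90 (8.42e-07). It did not pass without any 1 of control arrays 2, 4 and 5, the Lipofectamine arrays or the heat shock arrays (adjusted p = 0.0674 to 0.152). With heat shock it changed by 0.76 (adjusted p = 0.217), which was 1.32 without control arrays 1 and 3 (3.69e-05) and −0.08 with those alone. With benzyl alcohol the change was −0.46 (adjusted p = 0.631), and −1.30 with control arrays 1 and 3 alone (0.00102). Nfe2l2, which encodes NRF2, fell by 0.55 with heat shock (SE 0.152, adjusted p = 0.0486), and did not pass without any 1 of control arrays 1, 4 and 5, the Lipofectamine arrays or the heat shock arrays (0.0527 to 0.229). With Lipofectamine its change was 0.40 (adjusted p = 0.163), and 0.59 without control arrays 1 and 3 (0.00195).

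**Figure D5:**
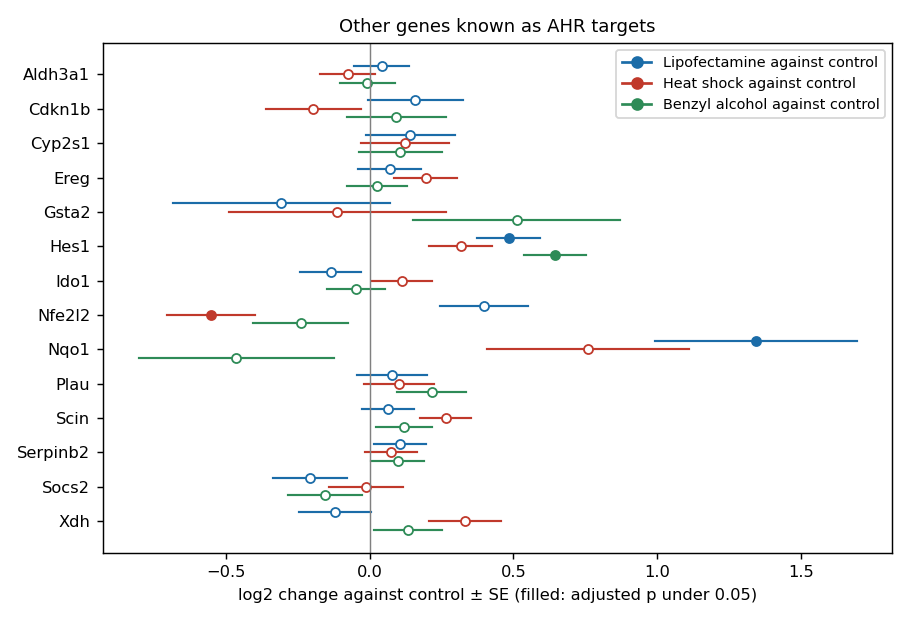
Log2 change ± SE against control of 14 other genes known as AHR targets, at the brightest probeset of each, for Lipofectamine, heat shock and benzyl alcohol. Filled points passed at an adjusted p under 0.05: Hes1 with Lipofectamine (0.48) and benzyl alcohol (0.65), Nqo1 with Lipofectamine (1.34) and Nfe2l2 with heat shock (−0.55).

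The same shares, 4.88%, 5.96% and 1.39% with Lipofectamine, heat shock and benzyl alcohol, stand behind the counts of the remaining lists. The cytosolic complex of AHR was measured at 3 of 6 listed genes. Hsp90aa1, the inducible HSP90 that holds the receptor ready for ligand, rose with heat shock by 0.40 (SE 0.103, adjusted p = 0.0366 by limma) and with benzyl alcohol by 0.58 (SE 0.108, adjusted p = 0.0126), and was 0.16 with Lipofectamine (adjusted p = 0.459). The heat shock call was lost without any 1 of control arrays 2 and 4, Lipofectamine array 1 and heat shock arrays 2 and 3 (0.053 to 0.19), and the benzyl alcohol call without array 1 or 3 (0.0753 and 0.0597). Cdc37 and Src did not pass in any comparison with control.

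Of 16 other bHLH-PAS factors 15 were measured. With heat shock 2 passed, against 5.96% of all probesets. Sim2, a factor of midline development, rose by 0.53 (adjusted p = 0.0273 by limma) and Clock, of the circadian clock, fell by 0.45 (adjusted p = 0.0484). None passed with Lipofectamine or benzyl alcohol. The Sim2 call was lost without control array 4 or heat shock array 2 or 3 (0.0647, 0.156 and 0.131), and the Clock call without any 1 of control arrays 2, 4 and 5, Lipofectamine array 1 and the heat shock arrays (0.0571 to 0.181). Of 11 coregulators 8 were measured. The acetyltransferase gene Crebbp fell by 0.43 with Lipofectamine (adjusted p = 0.0181), a call lost without Lipofectamine array 1 or 2 (0.0907 and 0.0524) or with only control arrays 1 and 3 (0.0868). The coactivator gene Ncoa1 fell by 0.51 with benzyl alcohol (adjusted p = 0.0209), lost without benzyl alcohol array 3 (0.145). No coregulator passed with heat shock.

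None of the 9 genes for making or importing AHR ligands, among them Ido1, Tdo2 and Il4i1 of tryptophan breakdown and the importer Slc7a5, passed against control with any treatment. The same held for the 11 other PARP genes measured of 15, relatives of Tiparp. Where 1.39% to 5.96% of all probesets passed, 0 calls in lists this short are near the background. Among 4 of 6 genes that work beside P450 enzymes, Cyb5b, an electron carrier, fell by 0.43 with benzyl alcohol (adjusted p = 0.0378 by limma). It did not pass without any 1 of control arrays 1, 2 and 3, Lipofectamine array 1, heat shock arrays 2 and 3 and the benzyl alcohol arrays (0.0543 to 0.142). The median log2 changes with Lipofectamine, heat shock and benzyl alcohol were −0.02, 0.11 and −0.02 over the ligand genes and 0.03, 0.01 and −0.06 over the PARP genes.

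The probesets whose pattern over the 14 arrays was most like that of Tiparp were found by Pearson r, with no test. For 1452160_at they were of Ints13 (r = 0.952), a subunit of the Integrator complex, Spry2 (0.936), a feedback inhibitor of growth factor signalling, and Apaf1 (0.926), the scaffold of the apoptosome. For 1426721_s_at they were of Slc25a44 (0.933), Apaf1 (0.932) and Tex10 (0.929), and for 1452161_at of Six4 (0.935), Prdm4 (0.909) and Ints13 at another probeset (0.909). Spry2, for one, had group means of 7.29 in control, 8.08 with Lipofectamine, 6.95 with heat shock and 8.12 with benzyl alcohol, the order seen for Tiparp. For 1450695_at, the brighter probeset of Ahr, the most alike were Aif1l (0.795), Gcnt1 (0.786) and Nek6 (0.767). All arrays share their normalization, and those of a group share their treatment.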

How the data were processed

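Total RNA of B16F10 cells was hybridized to Affymetrix mouse expression arrays. The authors read them with GCOS 1.2 and applied RMA (Bioconductor), which corrects background, normalizes arrays and summarizes the probes of a probeset. The deposited values are log2 signals. The version of RMA, and which arrays were processed together, are not given in the sources used here. The groups are labelled as biological replicates.

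With R 4.3.3 and limma 3.58.1, 64 Affymetrix control probesets were left out and 22626 tested, with no filter on signal. Lipofectamine, heat shock and control arrays (11) were fitted together, as the methods compare these groups. Comparisons with benzyl alcohol came from a fit of all 14. The moderated variance had 5.51 and 5.6 prior degrees of freedom. Across all probesets, p-values were adjusted after Benjamini and Hochberg, and an adjusted p under 0.05 was a call. Probesets of Tiparp were compared by exact permutation over arrays.

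The genes named are all probesets of the 7 members, up to 4 called genes of each pathway list by smallest p, each list gene read from its brightest probeset with 1 symbol, and the 3 probesets most like each Tiparp probeset and the brighter Ahr probeset. Symbols come from the platform annotation. Members, lists and tests were chosen with earlier results of these data known. The code was first tested on simulated data with known changes. Signals were not called present or absent, and their precision is limited by the number of arrays.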

Additional observations from a re-analysis of the deposited data

How the results depend on the processing

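Over 1920 alternatives for 78 changes of single probesets, 1882 kept their side of the threshold, 19 lost a call and 19 gained one, and 0 called changes turned their sign. Most of the 78 were not calls and had none to lose. All 19 losses were of Tiparp calls against control. At 1452161_at the call was lost in 7 of 24 alternatives with Lipofectamine and in 4 of 26 with benzyl alcohol. At 1452160_at it was lost in 1 of 24 and in 5 of 26. With Lipofectamine against control, 2 of the 13 probesets passed, and 1 passed with all 14 arrays in the fit, with only the groups compared, with no moderation of the variance and with the replicate number as a block, against 4 with array weights and 0 to 3 with an array left out. With heat shock the 2 became 4 with array weights, 4 without control arrays 1 and 3 and 0 with the replicate block, where the falls of Tiparp were −0.68 (adjusted p = 0.0883) and −0.64 (0.0803), and 2 to 3 with an array left out. With benzyl alcohol the 2 became 0 with only the groups compared and 0 with no moderation, and ranged from 0 to 3 with an array left out. Between benzyl alcohol and Lipofectamine the 1 became 3 with array weights, 2 without control arrays 1 and 3, and 1 to 2 with an array left out. The counts for Lipofectamine against heat shock and for benzyl alcohol against heat shock stayed between 3 and 4 and at 4. Calls of list genes also depended on the fit. With only the groups compared, the adjusted p by limma with benzyl alcohol was 0.103 for Ncoa1, 0.0738 for Hsp90aa1 and 0.14 for Cyb5b. For Lipofectamine it was 0.0572 for Crebbp, 0.0567 for Hes1 and 0.107 for Nqo1. For heat shock it was 0.0573 for Hsp90aa1 and 0.0801 for Nfe2l2. Hes1 with benzyl alcohol and Sim2 and Clock with heat shock still passed there.

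The difference between 1426721_s_at and 1452160_at of Tiparp was −0.21 for heat shock minus control and −0.80 for benzyl alcohol minus control when control arrays 2, 4 and 5 were left out, from 0.02 and −0.57. The replicate numbers gave no clear pairing of the arrays. Same-numbered arrays of different groups deviated together at correlations of −0.56 to 0.442, over 0.1 in 3 of 18 pairs, and 6 of 18 matched best with their own number. Deviations of the control arrays also carry the split of control arrays 1 and 3 from the others, so these correlations cannot exclude pairing. The cause of the shifts with the control arrays used was not tested. With 3 treated arrays, changes of small size can be missed, and signals near background understate change.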
